A study of Caenorhabditis elegans with 6 samples.

Results

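The miRNAs described here are 4 rows of the deposited tables that mark tissues outside the germ line. They are cel-mir-1 of muscle, cel-mir-60 of the intestine, and cel-lsy-6 and cel-mir-124 of neurons, written below without the species prefix. They were chosen by name, from the tissue each is known for, out of 253 miRNA genes, with earlier results of these data known. Each of the 4 was present in all 6 count tables and in the table of normalized values.

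The samples were gonads dissected from adult wild-type Caenorhabditis elegans of the N2 strain, 3 libraries from males and 3 from hermaphrodites, with no other allele or agent. The labels give germline as the cell type. Small RNA libraries were made from total RNA. The study set out to list the miRNAs of gonads and those enriched in the male gonad. The labels do not say how many animals entered a library or whether libraries came from separate dissections, so the spread between libraries may be technical.

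In C. elegans, mir-1 is made in body wall and pharyngeal muscle, where it sets the response of muscle to acetylcholine. The intestine is the main site of mir-60. The taste neuron ASEL requires lsy-6, which represses cog-1 there, and mir-124 is made in ciliated sensory neurons. The gonad also holds somatic cells of its own, among them contractile sheath and spermatheca in the hermaphrodite, and seminal vesicle and vas deferens in the male. Bulk RNA gives 1 level per library, so more cells of a type and more of a miRNA per cell cannot be told apart.

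In the WBcel235 annotation (Ensembl release 115) the gene mir-1 lies on chromosome I, mir-60 on chromosome II, lsy-6 on chromosome V and mir-124 on chromosome IV. Of these, mir-124 alone lies within a protein-coding gene, in an intron of trpa-1 on the same strand, a gene for a sensory ion channel. Non-coding RNAs are annotated on the opposite strand at mir-1 (T09B4.14), mir-60 (C32D5.15) and mir-124 (C29E6.8). No other miRNA gene was annotated within 10 kb of any of the 4.

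Hermaphrodite libraries held 2268159 to 2621478 miRNA counts and male libraries 245399 to 597166, so sex and depth could not be told apart. The ranges did not overlap, and a count of 3 stood for 1.14 to 1.32 CPM in hermaphrodite libraries and 5.02 to 12.2 CPM in male libraries. CPM are the counts of a miRNA scaled to a common library total. As a check of the labels, the mir-35 family of oocytes and embryos held a mean of 18.5% of the reads in hermaphrodite libraries and 0.0581% in male ones. Intervals given for single libraries and for summed counts cover counting error only, not the spread between libraries. PCR copies are counted as separate reads, so the counting error itself may be larger than these intervals show.

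All 4 marker miRNAs were counted in gonad libraries of both sexes, at levels far apart. The muscle miRNA mir-1 ranked between 28 and 48 among the 253 miRNAs of a library by raw count, and the intestinal mir-60 between 30 and 52. The neuronal lsy-6 ranked between 92 and 119, and mir-124 between 121 and 144 where it was counted. In male replicate 3 mir-124 had no read and was tied with all other uncounted miRNAs. Ranks compare read counts, which also depend on how well each miRNA is captured during library preparation. Together the 4 took 0.121%, 0.172% and 0.205% of counts in hermaphrodite replicates 1 to 3 and 0.386%, 0.315% and 0.0685% in male replicates 1 to 3. Male replicates 1 and 2 lay above each hermaphrodite library and male replicate 3 lay below each of them. The means were 0.166% ± 0.0424 and 0.256% ± 0.167 (SD, n = 3 each), and the male spread was wider than the difference.

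**Figure D1:**
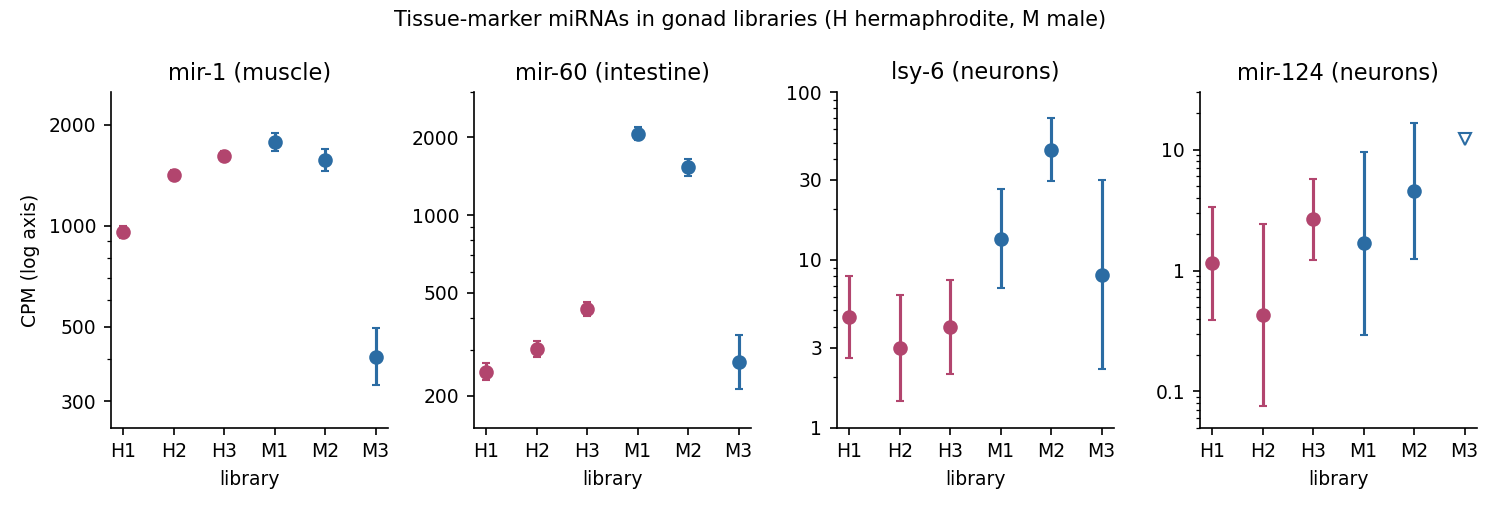
CPM (log axis) of each marker miRNA in hermaphrodite (H1 to H3) and male (M1 to M3) libraries; bars are 95% Wilson intervals. Male replicate 3 is the lowest male library in the panels of mir-1, mir-60 and lsy-6, and the open triangle marks 12.2 CPM, the level of 3 counts, for mir-124 there, where no read was counted.

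The muscle miRNA mir-1 had 2509, 3306 and 3655 raw counts in hermaphrodite replicates 1 to 3 and 1058, 690 and 100 in male replicates 1 to 3. As shares these were 957, 1412 and 1611 CPM in hermaphrodites and 1772, 1567 and 407 CPM in males. The sexes overlapped on this scale: male replicate 1 was the highest of the 6 libraries and male replicate 3 the lowest. The mean shares were 1327 ± 335 CPM in hermaphrodites and 1249 ± 736 CPM in males (SD, n = 3 each), and the two-sided exact permutation p of the difference was 0.9. With 3 libraries against 3 the smallest p this test can give is 0.1. Without male replicate 3 the male mean share was the higher one, by 343 CPM. With the mir-35 family left out of each library total, the difference, male minus hermaphrodite, was -379 CPM (exact permutation p 0.6). With the top-ranked hermaphrodite miRNA left out instead it was -350 CPM (exact permutation p 0.6).

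After scaling between libraries mir-1 was lower in male gonads, though it was not called with every scaling. The authors' normalized values were 1442, 2460 and 2304 in hermaphrodite replicates 1 to 3 and 942, 856 and 315 in male replicates 1 to 3, with no overlap, as for 68.5% of tested miRNAs. Across the 124 miRNAs that passed the filter on low counts, edgeR's quasi-likelihood test with trimmed mean of M values (TMM) scaling gave mir-1 a log2 fold change of -1.16 (SE 0.413, Benjamini-Hochberg adjusted p 0.0121), male over hermaphrodite. Of all tested miRNAs, 55.6% passed the same threshold of 0.05 in this comparison, 30.6% as higher and 25.0% as lower in males, so a call is common here. The call was lost with library totals, where the log2 fold change was -0.08 (edgeR adjusted p 0.886), with upper-quartile scaling (-0.94, adjusted p 0.120) and without hermaphrodite replicate 3 (-1.40, adjusted p 0.0826). These fits called 71.8%, 62.1% and 43.0% of the miRNAs they tested.

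The intestinal mir-60 had 649, 709 and 983 raw counts in hermaphrodite replicates 1 to 3 and 1237, 674 and 66 in male replicates 1 to 3. Its shares were 248, 303 and 433 CPM in hermaphrodites and 2071, 1531 and 269 CPM in males. Male replicates 1 and 2 stood well above each hermaphrodite library, while male replicate 3 fell within the hermaphrodite range. The mean shares were 328 ± 95.4 CPM and 1290 ± 925 CPM (SD, n = 3 each), a 3.94-fold higher male mean with a two-sided exact permutation p of 0.3. At the pooled hermaphrodite share, male replicates 1, 2 and 3 would have held 193, 143 and 79.4 counts, against the 1237, 674 and 66 found.

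In the fit over all tested miRNAs, mir-60 had a log2 fold change of 0.93 (SE 0.433) and was not called (edgeR adjusted p 0.0582). It was called in 2 of 16 alternative analyses. Without male replicate 3 the log2 fold change was 1.04 (SE 0.238) and the edgeR adjusted p 0.0021. That fit called 65.9% of tested miRNAs. Library totals also gave a call, at 1.98 (edgeR adjusted p 0.0344), where 71.8% were called. Without male replicate 1 the value fell to 0.18 (SE 0.554, edgeR adjusted p 0.813), and without male replicate 2 to 0.43 (edgeR adjusted p 0.554). Leaving out hermaphrodite replicate 1, 2 or 3 gave 0.53, 0.56 and 0.74, with no call. On the authors' normalized values the sexes overlapped, at 373, 528 and 620 in hermaphrodite replicates 1 to 3 and 1101, 837 and 208 in male replicates 1 to 3.

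The neuronal lsy-6 was counted by few reads, 12, 7 and 9 in hermaphrodite replicates 1 to 3 and 8, 20 and 2 in male replicates 1 to 3. Its shares were 4.58, 2.99 and 3.97 CPM in hermaphrodites and 13.4, 45.4 and 8.15 CPM in males. Male replicate 2 was the highest library, and the 95% Wilson interval of male replicate 3, from 2.24 to 29.7 CPM, covered all 3 hermaphrodite values. Each male library lay above each hermaphrodite library in CPM, as was the case for 71.0% of tested miRNAs, with an exact permutation p of 0.1, the smallest possible. Summed over libraries, lsy-6 had 28 counts in hermaphrodites, or 3.87 CPM (exact Poisson 95% interval 2.57 to 5.60), and 30 in males, or 23.4 CPM (15.8 to 33.4). Of those 30 counts, 20 came from male replicate 2, and these intervals leave out such spread between libraries.

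The fitted log2 fold change of lsy-6 was 1.50 (SE 0.605, edgeR adjusted p 0.0262), higher in males. The filter on low counts let lsy-6 through on its male libraries alone, where it is high, so this p-value is not independent support. With no filter the log2 fold change was 1.51 (edgeR adjusted p 0.0755). The call of the main fit did not hold in 9 of 12 alternative analyses, and male replicate 2 held most of the difference. Without male replicate 2 the log2 fold change was 0.26 (SE 0.502, edgeR adjusted p 0.702), in a fit that called 55.5% of tested miRNAs. Without male replicate 1 it was 1.64 and the edgeR adjusted p 0.0733. On the authors' normalized values the sexes overlapped, with 6.90, 5.21 and 5.67 in hermaphrodites and 7.12, 24.8 and 6.31 in males.

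The other neuronal miRNA, mir-124, was close to the limit of detection. It had 3, 1 and 6 raw counts in hermaphrodite replicates 1 to 3 and 1, 2 and 0 in male replicates 1 to 3. The sums were 10 counts in hermaphrodites, or 1.38 CPM (exact Poisson 95% interval 0.663 to 2.54), and 3 counts in males, or 2.34 CPM (0.482 to 6.83). Within each sex the libraries ranged from 0.427 to 2.65 CPM in hermaphrodites and from 0 to 4.54 CPM in males, so the sexes overlapped and a difference was not detectable at this depth. A count of 0 in male replicate 3, with 3 counts as its limit, allows up to 12.2 CPM, more than the level in any hermaphrodite library. The filter removed mir-124 from the main test. With no filter its log2 fold change was -0.25 (SE 1.17, edgeR adjusted p 0.864), and DESeq2 gave -0.68 (SE 1.49, adjusted p 0.693).

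Of the 4 marker miRNAs, 3 were tested, with lsy-6 passing the filter through its male libraries alone. In the main fit mir-1 was called as lower in males, lsy-6 as higher, and mir-60 was not called, beside 55.6% called among all tested miRNAs. Over all 124 tested miRNAs the median log2 fold change was 0.15. The scaling moved all 3 together. Library totals raised the median of all tested miRNAs by 1.03 on the log2 scale, and TMM computed without the mir-35 family changed it by -0.49. Relative to the median of the tested miRNAs, mir-1 stood at -1.30, mir-60 at 0.78 and lsy-6 at 1.35. Over the 5 scalings these distances ranged from -1.32 to -1.26 for mir-1, from 0.73 to 0.81 for mir-60 and from 1.28 to 1.40 for lsy-6. A scaling moves all miRNAs nearly alike, so these distances change little by construction. Leaving out libraries moved them more. Without male replicate 2, lsy-6 stood at 0.34, below mir-60 at 0.51, and without male replicate 1, mir-60 stood at 0.20.

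**Figure D2:**
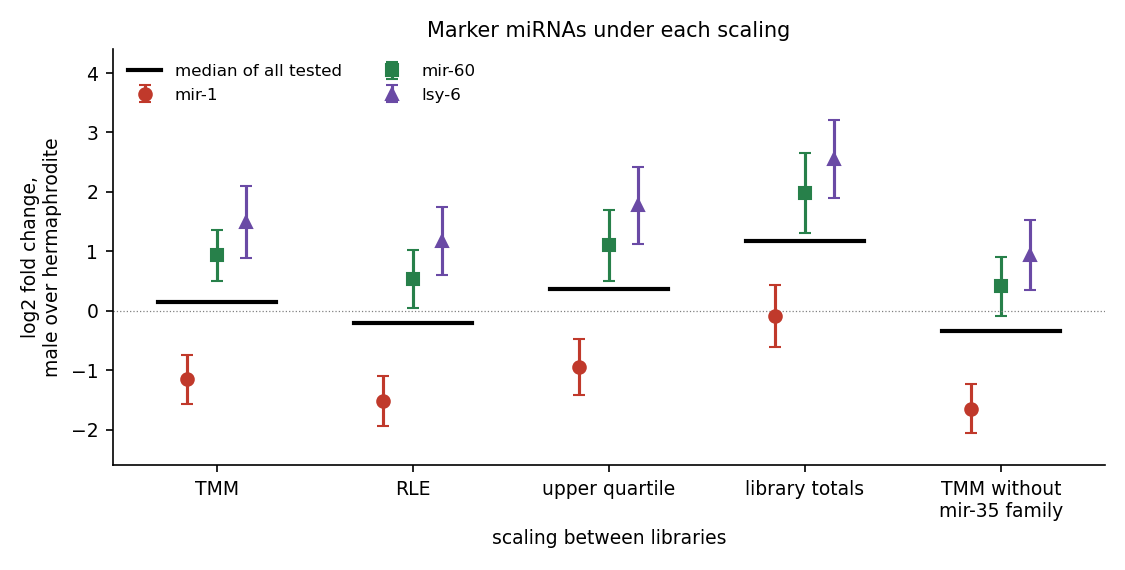
Log2 fold change, male over hermaphrodite, of mir-1, mir-60 and lsy-6 under 5 scalings between libraries; bars are 1 SE and the black lines the median of all tested miRNAs. Under each scaling mir-1 lies below the black line and mir-60 and lsy-6 above it, while the position relative to 0 shifts, with mir-1 near 0 under library totals.

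Ratios between markers within a library need no scaling. The ratio of mir-1 to mir-60 counts was 3.87, 4.66 and 3.72 in hermaphrodite replicates 1 to 3 and 0.855, 1.02 and 1.52 in male replicates 1 to 3. Each hermaphrodite library held several mir-1 reads for every mir-60 read, the male libraries held about as many of one as of the other, and the sexes did not overlap. The exact 95% interval nearest to the hermaphrodite libraries, that of male replicate 3, ran from 1.10 to 2.10, below the lowest hermaphrodite bound of 3.46. The mean log2 ratio was 2.02 ± 0.175 in hermaphrodites and 0.13 ± 0.42 in males (SD, n = 3 each). The ratio was thus 3.70-fold lower in males, and the two-sided exact permutation p was 0.1, the smallest possible, over 3 ratios compared. Such a separation was common: of the 7626 pairs of tested miRNAs, 70.3% had ratios that did not overlap between the sexes. The share was 65.9% among ratios to mir-1 and 45.5% among ratios to mir-60.

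The ratio of mir-1 to lsy-6 was 209, 472 and 406 in hermaphrodite replicates 1 to 3 and 132, 34.5 and 50.0 in male replicates 1 to 3. The sexes did not overlap here either, although the exact interval of male replicate 3, which rests on 2 lsy-6 reads, ran from 13.5 to 419. The ratio, taken from mean log2 values, was 5.87-fold lower in males (exact permutation p 0.1), and 55.3% of ratios to lsy-6 did not overlap between the sexes. The ratio of mir-60 to lsy-6, at 54.1, 101 and 109 in hermaphrodites and 155, 33.7 and 33.0 in males, overlapped between the sexes (exact permutation p 0.4). Male replicate 1 had the highest mir-60 to lsy-6 ratio of the 6 libraries and the other male libraries the lowest. Ratios with mir-124 were not formed because of its low counts.

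**Figure D3:**
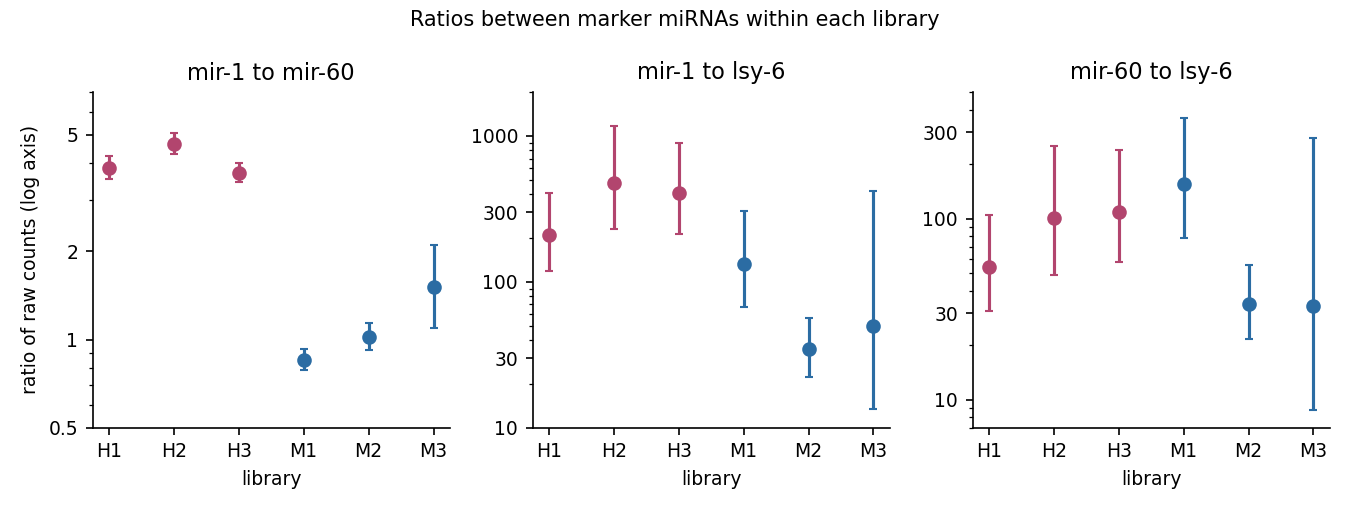
Ratio of raw counts (log axis) between pairs of marker miRNAs in each hermaphrodite (H1 to H3) and male (M1 to M3) library; bars are exact 95% intervals. The mir-1 to mir-60 ratio lies between 3.72 and 4.66 in hermaphrodites and between 0.855 and 1.52 in males, and the mir-60 to lsy-6 ratio overlaps between the sexes.

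To test the ratios with a spread shared over all miRNAs, the edgeR fit was repeated with the mir-1 count in place of the library size. Relative to mir-1, mir-60 was higher in males by 1.92 on the log2 scale (SE 0.640, adjusted p 0.0217) and lsy-6 by 2.55 (SE 0.690, adjusted p 0.00828). Of the 123 other tested miRNAs, 54.5% were called in this fit, 48.0% as higher in males, and the median log2 fold change was 1.66. The value of mir-60 is thus close to that of the middle miRNA: 66 of the 123 had a lower one. The mir-60 call was lost in 6 of 8 alternatives, which include leaving out any hermaphrodite library or male replicate 1 or 2. Without male replicate 3 it was 2.12 (adjusted p 2.47e-07), in a fit that called 71.0% of the other tested miRNAs. Relative to mir-1, lsy-6 lost its call without male replicate 2 (1.77, adjusted p 0.108), where 56.7% were called. As in the main fit, lsy-6 passed the filter through its male libraries alone, where it is high. With no filter it was called (2.55, adjusted p 0.00629), where 42.2% were called.

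In mir-1, mir-60 and lsy-6 the hermaphrodite libraries resembled one another more than the male libraries did. For mir-124 the hermaphrodite libraries varied 6.20-fold in CPM, on 3, 1 and 6 counts. From the lowest to the highest library, mir-1 varied 1.68-fold in CPM in hermaphrodites and 4.35-fold in males, mir-60 varied 1.75-fold and 7.70-fold, and lsy-6 varied 1.53-fold and 5.57-fold. The male range of lsy-6 rests on 8, 20 and 2 counts, so counting error is part of it. Male replicate 3, the smallest library, set the low end in each case. Its share was 4.10-fold below the mean of male replicates 1 and 2 for mir-1, 6.70-fold below for mir-60 and 3.61-fold below for lsy-6. The median tested miRNA was 1.32-fold below. Of the 124 tested miRNAs, 18 had a lower ratio than mir-1, 12 a lower ratio than mir-60 and 20 a lower ratio than lsy-6. In the same library mir-235 was 3.86-fold above, and its part in the low shares was not tested.

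**Figure D4:**
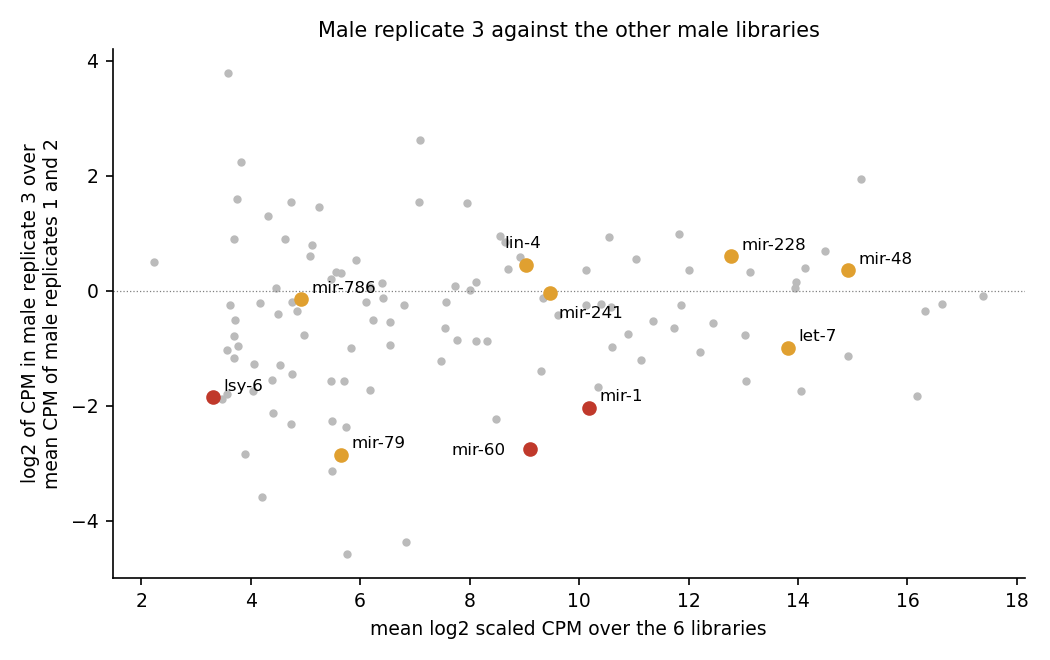
Log2 of the CPM in male replicate 3 over the mean CPM of male replicates 1 and 2, against mean log2 scaled CPM, for tested miRNAs: markers in red, other somatic miRNAs in orange, the rest in grey; 7 miRNAs are not drawn, 6 with no count in male replicate 3 and mir-38, which among the male libraries was counted in male replicate 3 alone. The markers mir-1, mir-60 and lsy-6 lie below 0 with mir-79 and let-7. Just below 0 are mir-241 and mir-786, while lin-4, mir-48 and mir-228 lie above 0.

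A further 9 miRNAs with known roles or expression in somatic cells were set beside the markers. The list held the heterochronic miRNAs lin-4, let-7, mir-241, mir-84 and mir-48, which time larval development, mir-228 of glia and hypodermis, mir-79 of the epidermis, mir-786 of the intestine and mir-791 of carbon dioxide-sensing neurons. Together they took 2.76% to 3.29% of hermaphrodite counts and 9.40% to 10.3% of male counts. A higher male share was common: with library totals the median log2 fold change of all tested miRNAs was 1.18. In CPM, 71.0% of tested miRNAs did not overlap between the sexes. The highest sum of the 9 was in male replicate 3, where mir-48 alone took 6.76% of counts and mir-228 took 1.96%. In that library let-7 stood 1.98-fold and mir-79 7.20-fold below the mean of the other male libraries. The intestinal mir-786 stood 1.11-fold and mir-241 1.03-fold below it, and lin-4, mir-48 and mir-228 stood above it. Of the 9, 7 were tested in the fit with TMM scaling: 2 were called as higher in males, 1 as lower and 4 were not called, beside 30.6% of all tested miRNAs called as higher and 25.0% as lower. Their median log2 fold change was 0.72, against 0.15 over all tested miRNAs.

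Called as higher in males were lin-4, with a log2 fold change of 1.30 (SE 0.417, edgeR adjusted p 0.00465), and mir-228. The lin-4 miRNA had 226, 217 and 270 CPM in hermaphrodite replicates 1 to 3 and 993, 1058 and 1398 CPM in male replicates 1 to 3. Unlike mir-1 and mir-60, it was highest in male replicate 3. For mir-228, at 2914 to 3661 CPM in hermaphrodites and 11764 to 19646 CPM in males, the log2 fold change was 1.22 (SE 0.390, edgeR adjusted p 0.00458). Its highest value was again in male replicate 3. The call of lin-4 was lost in 4 of 16 alternatives: without hermaphrodite replicate 1, 2 or 3 (edgeR adjusted p 0.0562, 0.116 and 0.0777) and with TMM without the mir-35 family (0.0693). That of mir-228 was lost in 5 of 16: without hermaphrodite replicate 2 or 3 (edgeR adjusted p 0.149 and 0.165), with TMM without the mir-35 family (0.0893) and with limma-trend at both pseudocounts (0.0728 and 0.0845). Without male replicate 3 both calls held at lower log2 fold changes, 0.70 for lin-4 and 0.55 for mir-228. That fit called 65.9% of tested miRNAs.

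Called as lower in males was mir-786, an intestinal miRNA that paces the defecation rhythm. It had 130, 110 and 92 raw counts in hermaphrodite replicates 1 to 3 and 8, 10 and 4 in male replicates 1 to 3. Its shares were 49.6, 47.0 and 40.6 CPM in hermaphrodites and 13.4, 22.7 and 16.3 CPM in males, without overlap, as for 71.0% of tested miRNAs. The log2 fold change was -2.46 (SE 0.623, edgeR adjusted p 0.000288). It kept this direction and call in all 16 alternatives, between -2.95 and -1.39. Both intestinal miRNAs were thus measured, mir-60 with a value above 0 and no call, and mir-786 with a call below 0.

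The epidermal mir-79, not called at 0.72 (SE 0.547, edgeR adjusted p 0.257), had 139, 154 and 20.4 CPM in male replicates 1 to 3. In male replicate 3 its ratio to the other male libraries was near that of mir-60. The neuronal mir-791 had 11, 7 and 6 raw counts in hermaphrodites and 6, 1 and 4 in males, and the filter removed it. No read was counted for mir-84 in any library.

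**Figure D5:**
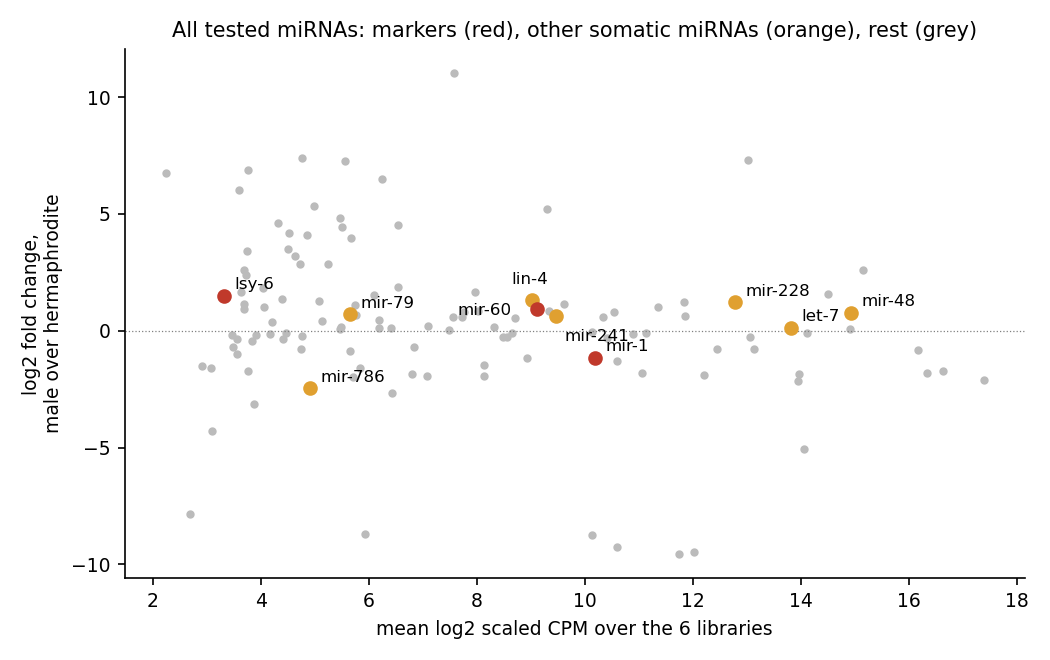
Log2 fold change, male over hermaphrodite, against mean log2 scaled CPM (CPM with the TMM-scaled library size) for the 124 tested miRNAs: markers in red, other somatic miRNAs in orange, the rest in grey. The markers mir-1, mir-60 and lsy-6 lie between -1.16 and 1.50, well inside the range of all tested miRNAs, from -9.55 for mir-39 to 11.02 for mir-2208b.

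The miRNAs whose pattern over the 6 libraries was most like each marker were ranked by the root mean square difference of log2 scaled CPM, after centring each miRNA on its own mean. For mir-1 they were mir-61, mir-8195 and mir-797, at differences of 0.25, 0.25 and 0.35, where the median over all others was 1.18. For mir-60 they were mir-787, mir-79 and mir-355, at 0.28, 0.33 and 0.44, and for lsy-6 they were mir-1820, mir-800 and mir-790, at 0.39, 0.40 and 0.52. The markers were not among each other's nearest. By this measure mir-60 stood in place 47 from mir-1, at 0.98, and lsy-6 in place 74, at 1.32. From mir-60, lsy-6 stood in place 24, at 0.81. Of these 9 neighbours, the abundant mir-61 had a mean of 73193 CPM in hermaphrodites and 86352 CPM in males.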

How the data were processed

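The authors deposited 1 table of whole-number read counts per library, not normalized, for 253 miRNA genes. They also deposited a table of normalized values, used as a signal: in each library the counts divided by 1 size factor, from 0.3172 to 1.7396. Per the submitters' processing notes the tools were Bowtie2, HTSeq and DESeq2, without roles. The build (ce10) and miRBase release (22) appear only in file and column names. Trimming and the treatment of reads matching several miRNAs are not given in the sources used here. Annotation came from WBcel235, matched by name for 250 of 253 miRNAs. As builds differ, no coordinates are given.

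Groups and replicate numbers came from sample titles. Counts were tested with edgeR 4.0.16 in R 4.3.3: filterByExpr (minimum count 10, which kept 124 miRNAs), TMM scaling, robust estimateDisp, glmQLFit and glmQLFTest, two-sided, Benjamini-Hochberg over all tested miRNAs, threshold 0.05. Standard errors were derived from the log2 fold change and the root of its F statistic. For ratios to mir-1 the mir-1 count replaced the library size. Shares and log2 ratios (0.5 added to both counts) were compared by exact two-sided permutation tests (scipy 1.17.1, Python 3.11.15).

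In 10 simulated sets of 124 miRNAs with 30 changed by 2 on the log2 scale, edgeR recovered 85% of the changes, and 1.77% of its calls were false. With mir-1 as the denominator, whose own noise then enters each value, these were 55.7% and 8.49%. In the gonad libraries 69 of 124 miRNAs were called, and log2 fold changes ran from -9.55 for mir-39 to 11.02 for mir-2208b. Recovery and false calls were not tested for that number and size of changes.

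Within each sex, any pair of libraries differed beyond sampling noise (the lowest chi-square was 2683, with 122 degrees of freedom), so no library looked like a copy of another, which leaves unknown whether they were prepared separately. The members and lists were chosen with earlier results of these data known. The miRNAs named are the 4 markers, the 3 nearest to each tested marker, a list of 9 somatic miRNAs with values for those called, and mir-235, mir-79, mir-791, mir-84 and the extremes mir-39 and mir-2208b, chosen after their values were seen. Mature sequences were not used here, so no miRNA was named by a shared seed. The alternatives used library totals, upper-quartile, RLE or mir-35-free TMM factors, DESeq2 1.42.0, no filter, a filter of at least 10 counts in 3 libraries, a replicate block, leaving out any single library, limma-trend (limma 3.58.1) on the normalized values with a pseudocount of 1 or 0.1, other totals for shares and another pseudocount for ratios.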

Additional observations from a re-analysis of the deposited data

How the results depend on the processing

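The lowest counts were those of lsy-6 (2 to 20 per library) and mir-124 (0 to 6) among the 4 markers. The number of miRNAs called, 69, stayed within 1.5 times under all alternatives (49 to 87 with a library left out). For mir-1 the call was lost with upper-quartile scaling (-0.94) and library totals (-0.083), and leaving out a library gave -1.67 to -1.09. For mir-60 a call was gained with library totals (1.98), and leaving out a library gave 0.18 to 1.04. For lsy-6 the call was lost with RLE (1.17), TMM without the mir-35 family (0.94), no filter (1.51), DESeq2 (1.15) and limma-trend on the normalized values (0.74 with a pseudocount of 1, 0.81 with 0.1), and leaving out a male library gave 0.26 to 1.64. Leaving out a hermaphrodite library, or the stricter filter, removed lsy-6 from the test. Relative to mir-1, leaving out a library gave 1.73 to 2.12 for mir-60 and 1.77 to 3.04 for lsy-6. The cause of these changes was not tested.

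Between same-numbered libraries of the sexes, the correlations of deviations from the sex means were -0.12, -0.05 and -0.27 over 124 miRNAs. With 3 libraries per sex these values cannot decide whether same-numbered libraries were prepared together. With the replicate number as a block lsy-6 (1.25) and mir-60 relative to mir-1 (1.89) lost their calls, and 58 miRNAs were called.

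The difference in mean share of mir-1, male minus hermaphrodite, was -78.0 CPM and was reversed without hermaphrodite replicate 3 (64.4) and without male replicate 3 (343), within -339 to 343 with a library left out. For mir-124 it was 0.667 CPM, and -0.568 without male replicate 2, within -0.568 to 1.70. The 3 log2 ratios kept their direction in all 8 alternatives each. No alternative could be compared for the fitted change of mir-124, which the filter removed from the main test.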

Other observations

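The ratio of the intestinal miRNAs mir-60 and mir-786 was looked at after their values were seen and is given as a description. It was 4.99, 6.45 and 10.7 in hermaphrodite replicates 1 to 3 and 155, 67.4 and 16.5 in male replicates 1 to 3. The sexes did not overlap, as for 45.5% of ratios of tested miRNAs to mir-60 and 70.3% of all tested pairs, and male replicate 3 lay nearest to the hermaphrodite libraries. The male values rest on 8, 10 and 4 counts of mir-786.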
